A study of Mus musculus with 28 samples.

Results

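MS-275 was compared with DMSO in the RNA of mouse P19 cells on day 2 of retinoic acid, using the 2 libraries labelled MS-275 and the 2 labelled DMSO among the 10 RNA libraries and 28 samples of the series. P19 is an established embryonal carcinoma line that behaves as a pluripotent cell. It forms neural stem and progenitor cells in retinoic acid and neurons after replating. All 4 cultures were P19 cells in serum-containing proliferation medium with 1 µM retinoic acid for 2 days. After 24 h of retinoic acid, MS-275 cells were given 1 µL of MS-275 from a 10 mM stock, and DMSO cells 1 µL of DMSO. The drug acted during the second day. The sources used here give no culture volume, so the final concentration is unknown. Retinoic acid, 1 day without drug, and the line are shared by both groups, and no day 2 culture free of both additions is used here. Libraries of untreated cells (day 0), day 4 progenitors and day 8 neurons are used here to place genes in the course. They also entered the fit behind the p-values, the scaling and the filter on low counts. The series calls its replicates biological, and p-values below rest on the spread between replicates within the 5 groups of the 10 RNA libraries.

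MS-275 (entinostat) is a benzamide that inhibits class I histone deacetylases, which remove acetyl groups from histone tails and sit in the Sin3, NuRD, CoREST and NCoR complexes. Acetylated histones are a mark of active genes, so blocking these enzymes is known to raise many silent genes and to lower others. Retinoic acid binds nuclear receptors that recruit deacetylases without ligand and acetyltransferases with it, and it is the signal that moves P19 cells from pluripotency to hindbrain-like neural progenitors through Hox, proneural and Notch genes.

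Total estimated counts lay between 18115926 and 19586374 in the 4 libraries. Genes with at least 10 counts numbered 16493 and 16451 with MS-275 against 14995 and 14885 with DMSO, and genes with at least 1 count 23414 and 23342 against 21248 and 21062. The labels call all 4 samples neural stem and progenitor cells. The 8 markers of that state summed to 804 and 749 CPM (counts scaled to library size by TMM factors) with MS-275 against 653 and 662 with DMSO, although 6 of the 8 were called lower and 2 higher, and none was at 0. The 2 higher markers were Nes and Pax6. Nes alone gave 645 and 587 CPM of the sums with MS-275, and 348.5 and 354.5 CPM with DMSO, so it set their order. Of the 8 pluripotency markers 6 were called higher and 1 lower, with sums of 325 and 320.5 CPM with MS-275 against 272 and 264 with DMSO. Of the 8 neuron markers 3 were called higher and 2 lower (371 and 384 CPM against 345 and 316). The 8 fibroblast markers summed to 570.0 and 523 CPM with MS-275 against 41.5 and 42.6 with DMSO, and 6 of them were called higher and 1 lower. Markers of muscle (19.12 and 18.7 CPM against 6.23 and 6.88), endoderm (7.63 and 7.22 against 3.403 and 3.75), blood and endothelium (13.7 and 13.6 against 6.75 and 6.03) and germ cells (42.9 and 40.8 against 3.35 and 3.75) had the smaller sums of the 8 lists with DMSO; 3 markers were called higher and none lower in each of these 4 lists, of 5, 5, 6 and 4 markers tested, beside 31.9% higher among all genes tested. Of these rises, Hnf4a (endoderm) and Gata1 (blood and endothelium) passed the filter on low counts only through the MS-275 libraries. The calls of Kdr, Gata6 and Sycp3 were lost with some single libraries left out. So were those of falls in Fabp7 (neural progenitor), Lin28a (pluripotency) and Dcx (neuron). Stra8 alone gave 39.2 and 36.1 CPM of the germ cell sums with MS-275, and 2.30 and 2.22 CPM with DMSO. Of the defining markers, Ttr and Hbb-bh1 were at 0 in all 4 libraries, and Myog, Ckm, Afp, Hnf4a, Apoa1, Ptprc, Gata1, Spi1, Dazl and Dmc1 were at 0 with DMSO. In bulk RNA, more cells of a type and more RNA per cell cannot be told apart.

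The MS-275 libraries differed from each other in some genes, among them hypoxia-inducible ones. Of 10336 genes with a mean of at least 10 CPM with MS-275, 22 were at least 2-fold apart between the replicates, 21 of them higher in replicate 2, against 3 of 9801 such genes with DMSO. A set of 22 hypoxia-inducible genes, picked after the values were seen and so not tested, was higher in replicate 2 of MS-275 in 22 of 22 cases, by 1.52 to 10.5 times (median 2.21), against 0.916 to 1.54 times in DMSO (median 1.15). The clock and hypoxia factor Bhlhe40 had 7.28 and 76.3 CPM with MS-275 against 49.4 and 71.4 with DMSO. The mTOR inhibitor gene Ddit4 had 33.8 and 222 CPM with MS-275 against 61.9 and 79.2 with DMSO. The mitophagy receptor gene Bnip3 had 20.3 and 113 CPM with MS-275 against 46.9 and 58.9 with DMSO. For 15 of the 22 genes the MS-275 libraries lay on both sides of both DMSO libraries, so values of glycolysis and hypoxia genes below depend on the library.

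MS-275 changed most genes tested. Of 17789 genes tested, 11256 (63.3%) were called between MS-275 and DMSO by edgeR's quasi-likelihood test at a Benjamini-Hochberg adjusted p under 0.05, 5677 higher (31.9%) and 5579 lower (31.4%), with a median log2 fold change of 0.006. The large changes were mostly rises: 3384 genes (19%) were called higher by 2-fold or more and 1075 (6.04%) lower by 2-fold or more, and 1966 against 265 passed 4-fold. The groups did not overlap for 81.5% of the genes tested. Higher genes made up 50.4% of all calls, and 61.2% when the libraries were scaled by their totals or 61.3% by upper quartiles. Those scalings put the median log2 fold change of all genes at 0.143 and 0.145, so changes of that size depend on the scaling.

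Levels with DMSO are part of the fold, so those of rising and falling genes are given as a description. Genes at least 2-fold higher had a median DMSO level of 0.846 CPM and a median log2 fold change of 2.28, and 1382 of them lay under 0.5 CPM with DMSO. Genes at least 2-fold lower had a median DMSO level of 17.0 CPM and a median log2 fold change of −1.45, and all genes tested a median level of 14.8 CPM. No count at all was seen with DMSO for 187 of the higher genes. Of the genes tested, 694 passed the filter on low counts only through the MS-275 libraries, and 488 of those were called at least 2-fold higher; these genes would not have been tested on the other libraries alone. Among genes with at least 5 CPM with DMSO, 698 rose and 736 fell by 2-fold or more.

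**Figure D1:**
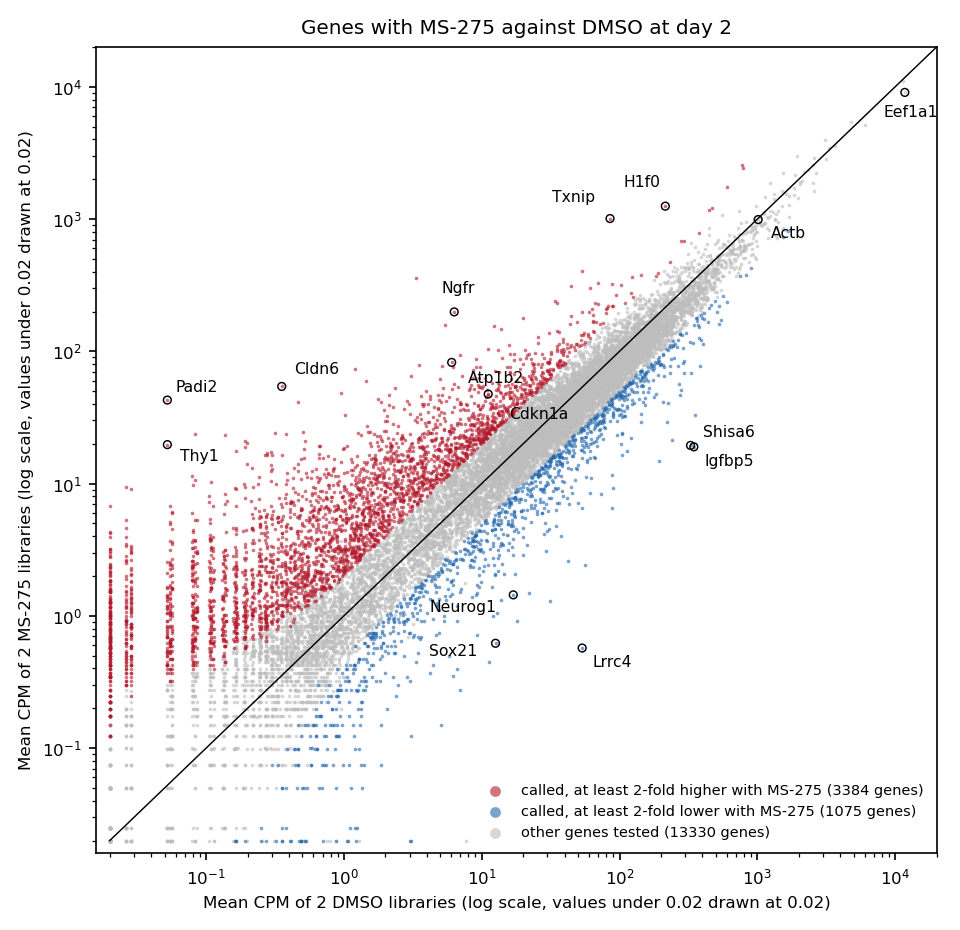
Mean CPM of each of the 17789 genes tested in the 2 MS-275 libraries (vertical, log scale) and the 2 DMSO libraries (horizontal, log scale); points are genes, coloured by call, and the line marks equal levels. Red points (3384 genes) spread above the line at low DMSO levels, and blue points (1075 genes) lie below it mostly above 1 CPM.

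Among genes already at 5 CPM or more with DMSO, the nerve growth factor receptor gene Ngfr (chromosome 11, 95568818 to 95587698 on GRCm38) rose most among named genes. Ngfr had 205 and 192 CPM with MS-275 against 5.76 and 6.88 with DMSO, a rise of 31.5-fold (log2 fold change 4.98, SE 0.101, edgeR adjusted p = 2.07e-15). Atp1b2, for a sodium pump beta subunit of neurons and glia, had 84.7 and 80.3 CPM with MS-275 against 6.60 and 5.52 with DMSO (13.6-fold). In these genes the replicates of each group lay close together, and both MS-275 libraries were far above both DMSO libraries. Cpt1a, which brings fatty acids into mitochondria, rose 13.5-fold, the small heat shock protein gene Hspb1 12.6-fold and the class I histocompatibility gene H2-D1 12.3-fold. Txnip, an arrestin that limits glucose uptake, had 1064 and 955 CPM with MS-275 against 89.4 and 81.3 with DMSO (11.8-fold). The integrin gene Itga3 rose 10.6-fold, the secreted chaperone gene Clu 10.2-fold and the posterior Hox gene Hoxb9 9.59-fold.

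Genes under 0.5 CPM with DMSO are described next by those with the highest MS-275 levels, a choice that fixes their direction. Esx1, Plac1 and Tex19.2 among them passed the filter on low counts only through the MS-275 libraries. Esx1, a homeobox gene of the placenta, had 46.2 and 36.8 CPM with MS-275 against 0.471 and 0.455 with DMSO (88.3-fold). Plac1, another X-linked gene of the placenta, had 25.4 and 22.4 CPM with MS-275 against 0.524 and 0.114 with DMSO. The zinc transporter gene Slc30a2 had 22.6 and 24.7 CPM with MS-275 against 0.419 and 0.341 with DMSO (61.0-fold). The germline gene Tex19.2 had 24.1 and 18.02 CPM with MS-275 against 0.157 and 0.228 with DMSO (107-fold), and the neuronal calcium sensor gene Hpcal4 had 22.1 and 18.2 CPM with MS-275 against 0.0524 and 0.341 with DMSO; Tex19.2 has a near copy, Tex19.1, and reads may be split between them. Padi2, a peptidylarginine deiminase gene, had 46.7 and 38.9 CPM with MS-275 against 0.105 and 0 with DMSO (ratio 786, 95% counting interval 217 to 6491). The embryonic tight junction gene Cldn6 had 59.7 and 48.8 CPM with MS-275 against 0.366 and 0.341 with DMSO (150.4-fold). These genes, with Pla2g1b and Thy1, were among the 10 with the highest MS-275 level among named genes under 0.5 CPM with DMSO. Esx1 had a mean of 0.0540 CPM at day 4 and 0.405 at day 0, so it was low without drug at these times as well, whereas Cldn6 had 19.8 CPM at day 0.

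The 10 largest falls among named genes at 5 CPM or more included developmental transcription factors and cell surface proteins. Lrrc4, which encodes a synaptic adhesion protein (chromosome 6, 28828126 to 28831747), had 0.396 and 0.747 CPM with MS-275 against 58.1 and 49.1 with DMSO, the largest of them. The peptide gene Cck had 0.248 and 0.0498 CPM with MS-275 against 5.92 and 4.21 with DMSO. The lens and forebrain factor Foxe3 had 0.198 and 0.348 CPM with MS-275 against 6.28 and 7.68 with DMSO. The spinal cord factor Prdm13 had 0.594 and 0.299 CPM with MS-275 against 12.1 and 10.3 with DMSO. Ntng2, a netrin relative on axons, fell 24.1-fold, the integrin gene Itgb8 23.1-fold, and Sox21, a factor of neural progenitors, 20.1-fold. Igfbp5, an insulin-like growth factor binding protein, had 17.1 and 20.9 CPM with MS-275 against 347 and 346 with DMSO (18.2-fold lower). Shisa6, an AMPA receptor partner, had 18.8 and 20.1 CPM with MS-275 against 317 and 338 with DMSO (16.8-fold lower). The forebrain factor Fezf2 had 0.0990 and 0.597 CPM with MS-275 against 6.07 and 6.31 with DMSO.

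By difference in level, the largest gain among named genes was that of Peg10, a retrotransposon-derived imprinted gene. Peg10 had 2761 and 2397 CPM with MS-275 against 750.0 and 789.7 with DMSO. H3f3b, a gene of the replacement histone H3.3, had 2381 and 2453 CPM with MS-275 against 787 and 780.5 with DMSO. The nuclear RNA Malat1 (2.90-fold), the linker histone gene H1f0 (5.82-fold) and the poly(A)-binding protein gene Pabpc1 (1.53-fold) followed. The largest losses were small in fold: the translation factor gene Eef1a1 had 8920 and 9221 CPM with MS-275 against 11910 and 11610 with DMSO (1.30-fold lower), the splicing factor gene Hnrnpa1 fell 1.57-fold, the chaperone gene Hsp90ab1 1.18-fold, the fatty acid synthase gene Fasn 2.04-fold and Eif4g2 2.13-fold. The panel gene Actb, for cytoplasmic actin, had 997 and 986 CPM with MS-275 against 1013 and 1015 with DMSO and was not called (log2 fold change −0.03, edgeR adjusted p = 0.567); scaled by library totals it was called higher at 0.105 (adjusted p = 0.0498). Gapdh had 822 and 937 CPM with MS-275 against 1109 and 1057 with DMSO and was called lower (log2 fold change −0.30).

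Histone marks were mapped at day 2 in the same treatments, with 1 ChIP library per mark and condition, so no comparison of marks has a test. H3K9ac is acetylation, H3K9cr crotonylation and H3K18la lactylation of histone H3 lysines. The MS-275 list held 84418 H3K9ac peaks covering 122 Mb, against 26555 covering 34.2 Mb in the DMSO list. H3K9cr had 70748 peaks with MS-275 against 24874 with DMSO, and H3K18la 31577 against 36382; the read depth behind the lists is unknown. The median fold enrichment of the peaks was lower in the MS-275 lists. It was 4.73 with MS-275 against 13.8 with DMSO for H3K9ac, 5.02 against 16.7 for H3K9cr and 4.07 against 5.14 for H3K18la. Genes at least 2-fold higher in RNA had an H3K9ac peak within 1 kb of either end of the gene in 86.7% of cases in the MS-275 list and 69.2% in the DMSO list. For genes at least 2-fold lower the shares were 88.0% and 84.4%, and for genes not called 81.0% and 74.7%. H3K9cr gave nearly the same shares: 85.1% and 68.9% for higher genes, 86.7% and 84.5% for lower genes, 79.7% and 74.6% for genes not called. Counted by peak summits, the order for lower genes turned, to 71.3% with MS-275 and 71.6% with DMSO for H3K9ac and 68.8% and 71.4% for H3K9cr. H3K18la went the other way, with 36.0% and 51.3% for higher genes, 35.1% and 76.2% for lower genes, and 24.6% and 64.6% for genes not called.

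Peaks found at a gene in the MS-275 list alone were most frequent at the genes whose RNA rose. Of genes at least 2-fold higher, 17.6% had H3K9ac in the MS-275 list alone, against 4.31% of genes at least 2-fold lower and 7.01% of genes not called. The same shares were 17.0%, 3.34% and 6.10% for H3K9cr and 8.48%, 1.29% and 1.80% for H3K18la. An H3K18la peak in the DMSO list alone was found at 23.8% of higher genes, 42.4% of lower genes and 41.8% of genes not called. One in both lists was found at 27.5%, 33.8% and 22.8%. All these shares are of whole classes, so they also depend on how many genes had a DMSO peak. For H3K9ac, 569 higher, 40 lower and 378 uncalled genes had a peak in the MS-275 list alone. Beside them, 425, 105 and 987 had none in either list. Level matters for these shares. Among genes under 0.5 CPM with DMSO, those at least 2-fold higher had H3K9ac peaks in 78.3% of cases in the MS-275 list and 49.4% in the DMSO list, and those not called in 54.6% and 36.7%. Gene ends were known for 16233 of the genes tested (95.5% of higher, 86.2% of lower and 82.6% of uncalled genes), and which end is the start was not used.

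**Figure D2:**
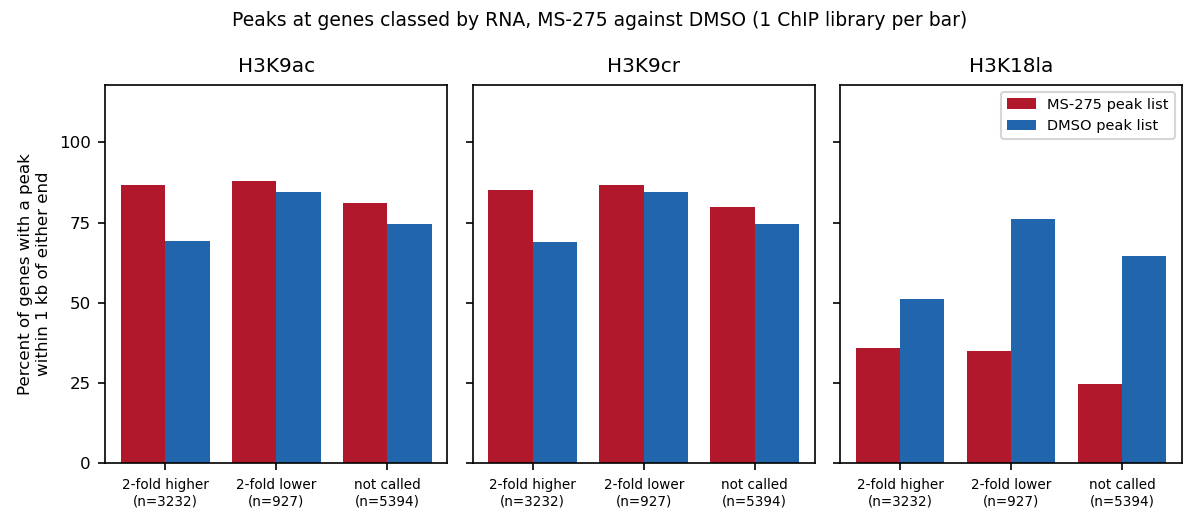
Percent of genes with a peak of H3K9ac, H3K9cr or H3K18la within 1 kb of either gene end, in the MS-275 (red) and DMSO (blue) peak lists, for genes at least 2-fold higher, at least 2-fold lower or not called in RNA; each bar is 1 ChIP library. The gap between lists for H3K9ac is widest for higher genes (86.7% against 69.2%), and for H3K18la the DMSO bars are the taller ones in each class.

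The promoters of 6 genes that stand for the response are shown: a p53-pathway gene and a histone gene that rose (Cdkn1a, H1f0), genes under 0.5 CPM with DMSO that rose (Padi2, Cldn6) and neural genes that fell (Neurog1, Lrrc4). Each line gives the 200 bases before 1 annotated start, the first listed for the gene, read in the direction of the gene, from RefSeq on GRCm38.p6. Capitals mark GGGCGG, the GC box bound by Sp1-type factors, or its reverse complement CCGCCC.
Cdkn1a, plus strand, chr17:29090779-29090978: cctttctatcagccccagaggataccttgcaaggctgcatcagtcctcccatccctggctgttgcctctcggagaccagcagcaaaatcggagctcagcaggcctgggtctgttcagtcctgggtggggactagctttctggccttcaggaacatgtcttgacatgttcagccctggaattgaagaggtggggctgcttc
H1f0, plus strand, chr15:79028012-79028211: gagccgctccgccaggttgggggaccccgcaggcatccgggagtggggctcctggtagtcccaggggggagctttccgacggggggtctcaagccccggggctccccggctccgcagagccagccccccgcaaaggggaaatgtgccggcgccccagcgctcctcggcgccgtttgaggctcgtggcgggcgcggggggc
Padi2, plus strand, chr4:140906160-140906359: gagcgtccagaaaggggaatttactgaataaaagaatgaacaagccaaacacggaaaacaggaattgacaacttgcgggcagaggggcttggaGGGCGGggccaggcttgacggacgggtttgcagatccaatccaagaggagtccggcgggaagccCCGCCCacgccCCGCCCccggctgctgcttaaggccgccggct
Cldn6, plus strand, chr17:23679165-23679364: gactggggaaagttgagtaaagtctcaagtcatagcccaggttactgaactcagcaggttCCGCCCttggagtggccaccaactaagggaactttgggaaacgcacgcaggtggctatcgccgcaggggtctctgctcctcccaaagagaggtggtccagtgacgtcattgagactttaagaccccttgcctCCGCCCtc
Neurog1, minus strand, chr13:56252181-56252380: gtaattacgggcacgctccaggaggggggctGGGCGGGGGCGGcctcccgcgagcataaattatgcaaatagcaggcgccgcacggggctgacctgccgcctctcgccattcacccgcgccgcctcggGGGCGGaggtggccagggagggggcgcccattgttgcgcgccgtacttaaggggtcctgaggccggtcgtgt
Lrrc4, minus strand, chr6:28831748-28831947: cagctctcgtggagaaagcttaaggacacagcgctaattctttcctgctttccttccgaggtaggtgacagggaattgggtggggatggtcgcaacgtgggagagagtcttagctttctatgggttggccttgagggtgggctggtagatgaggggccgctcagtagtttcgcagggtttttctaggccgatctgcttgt
GGGCGG was found on either strand 3 times in the Padi2 window, 2 times in Cldn6 and 3 times in Neurog1. It was not found in these letters in the windows of Cdkn1a, H1f0 or Lrrc4, and overlapping matches were not seen. Of windows of this length at the first-listed start of 27025 genes, 31.3% hold it. Other starts of a gene were not searched, so a window without it does not show that the gene lacks a GC box. Padi2 had 1 peak of each of the 3 marks within 1 kb in the MS-275 lists and none in the DMSO lists. Cldn6 had an H3K9ac peak in both lists, 6638 bases long with MS-275 against 305 with DMSO, an H3K9cr peak in the MS-275 list alone and an H3K18la peak in the DMSO list alone. At H1f0, the H3K9ac peak was longer with MS-275 (9001 bases against 1874 with DMSO) but its fold enrichment, the authors' value, was lower (16.8 with MS-275 against 59.7 with DMSO). At Cdkn1a, the peak was 7087 bases with MS-275 against 1778 for the stronger of 2 DMSO peaks, with fold enrichments of 25.1 with MS-275 against 15.9 with DMSO. Neurog1 and Lrrc4 had H3K9ac and H3K9cr peaks in both lists while their RNA fell, and the H3K18la peak at Neurog1 was in the DMSO list alone. At Lrrc4 the fold enrichments were 21.7 with MS-275 against 34.6 with DMSO for H3K9ac, and 14.8 against 43.9 for H3K9cr. At Neurog1 they were 11.5 with MS-275 against 9.6 with DMSO for H3K9ac, and 10.8 against 10.4 for H3K9cr.

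Gene lists were then read for the biology of the response, each by the number of tested members called in each direction beside the 31.9% higher and 31.4% lower of all genes tested. The class I deacetylases themselves did not move together. Hdac1 had 416 and 397 CPM with MS-275 against 245 and 244 with DMSO (1.66-fold higher, log2 fold change 0.73, SE 0.0485, edgeR adjusted p = 1.53e-09). Hdac2 had 153 and 164 CPM with MS-275 against 219 and 227 with DMSO (1.41-fold lower). Hdac3 had 163 and 156 CPM with MS-275 against 158 and 153 with DMSO. Hdac8 had 10.2 and 7.96 CPM with MS-275 against 9.69 and 10.6 with DMSO, and neither was called, though Hdac3 was called higher under upper quartile and library total scaling. Over the enzymes and their complexes, 21 of 34 genes fell (61.8%) and 5 rose (14.7%), with a median log2 fold change of −0.24; 14 of the falls held under all 4 scalings. The NuRD remodeller gene Chd3 fell 2.99-fold, its partner Mbd3 2.51-fold and the CoREST gene Rcor3 2.24-fold, whereas the methyl-DNA binding NuRD gene Mbd2 rose 2.11-fold. Of 14 other deacetylases and sirtuins 6 rose and 3 fell, 1 of the falls under all 4 scalings (median log2 fold change 0.13): the mitochondrial Sirt4 rose 2.12-fold, the tubulin deacetylase gene Hdac6 1.55-fold, and Hdac4 fell 1.97-fold. Hdac7 fell 1.33-fold, a call that was lost without MS-275 replicate 2.

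Most genes of the enzymes that add acyl groups, and of the readers of these marks, fell. Of 23 acyltransferases and acyl readers, 17 fell (73.9%), 1 rose and 5 were not called (median log2 fold change −0.37). Crebbp, which encodes CBP, had 75.4 and 76.0 CPM with MS-275 against 154 and 169 with DMSO (2.14-fold lower). Kat2b, encoding PCAF, had 5.89 and 5.87 CPM with MS-275 against 15.7 and 16.7 with DMSO (2.75-fold lower), and Kat5, encoding Tip60, fell 1.80-fold. The exception that rose was Dpf1, a reader in neuronal chromatin remodellers (1.38-fold). Histone genes split: 9 of 19 polyadenylated and variant histones rose and 5 fell (median 0.53). H1f0, a linker histone of cells that leave the cycle, had 1282 and 1222 CPM with MS-275 against 229.8 and 200.2 with DMSO (5.82-fold). Hist1h1c, for linker histone H1.2, had 19.9 and 19.5 CPM with MS-275 against 2.04 and 2.33 with DMSO (8.99-fold). H2afy2, for macroH2A2, had 21.4 and 22.5 CPM with MS-275 against 121 and 121 with DMSO (5.53-fold lower), and H2afz, for H2A.Z, fell 1.36-fold. Replication-dependent histone genes are near copies of each other, so their counts are uncertain.

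**Figure D3:**
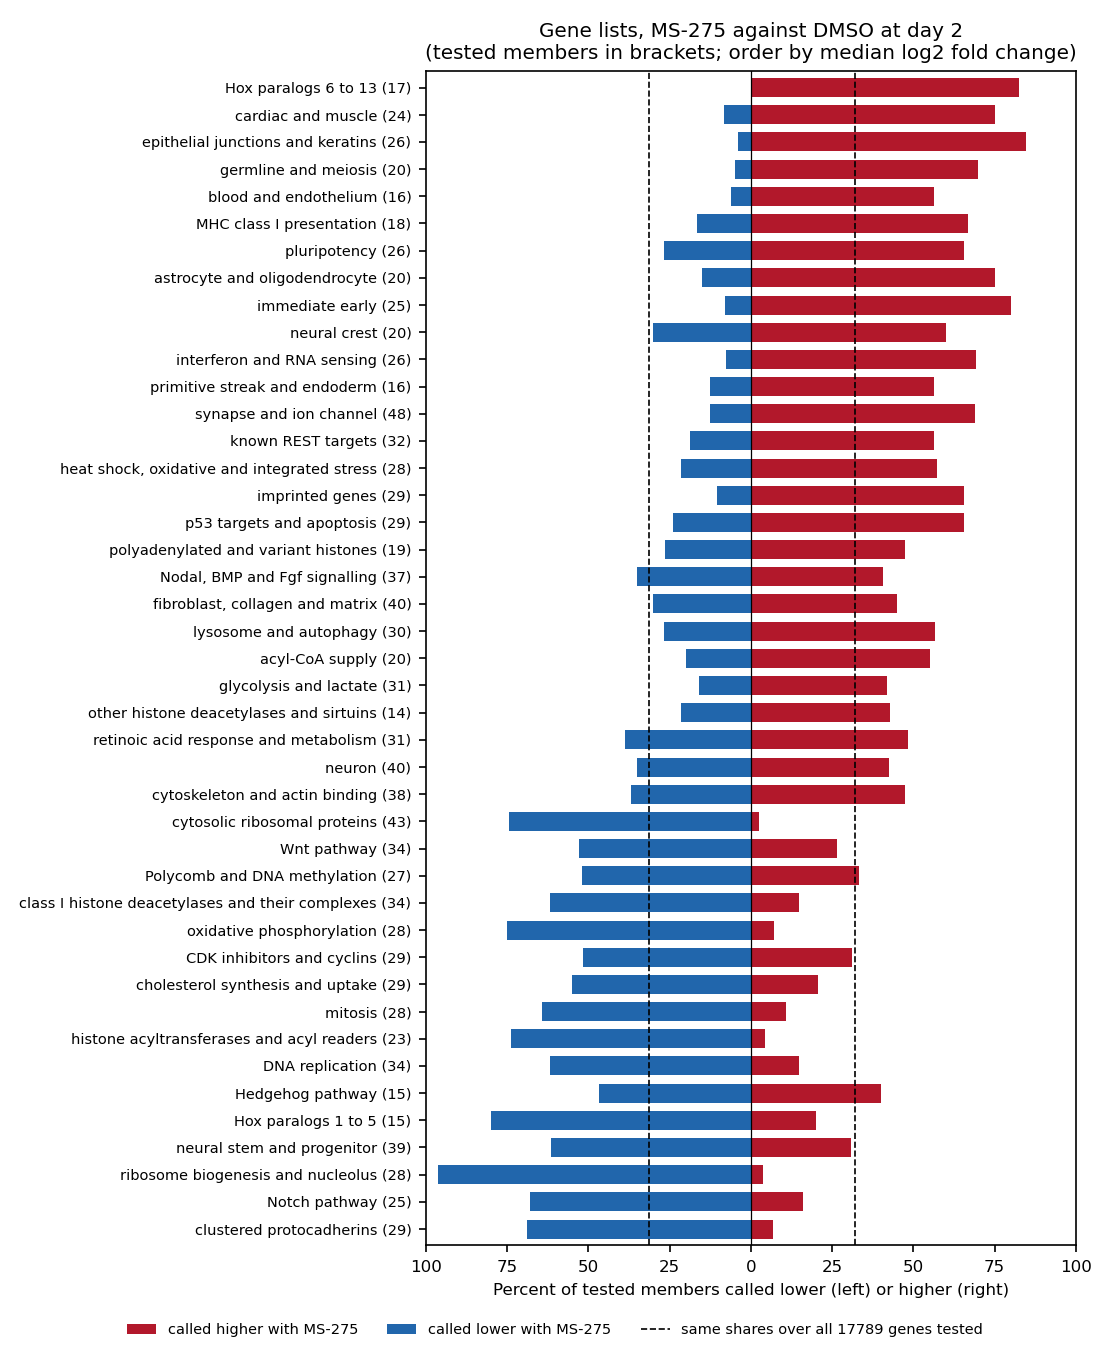
Percent of the tested members of each gene list called higher (right, red) or lower (left, blue) with MS-275 than with DMSO; lists run down by median log2 fold change, and dashed lines mark the shares over all 17789 genes tested (31.9% and 31.4%). Posterior Hox, muscle, epithelial and germline lists sit at the top and ribosome biogenesis, Notch and protocadherin lists at the bottom.

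Genes of 3 inhibitors of the cell cycle rose, and genes of its machinery fell, mostly by modest folds. Cdkn1a, for the CDK inhibitor p21, had 51.2 and 43.9 CPM with MS-275 against 11.9 and 10.3 with DMSO (4.26-fold, log2 fold change 2.09, SE 0.112, edgeR adjusted p = 1.22e-10). The CDK inhibitor genes Cdkn2a (14.2 and 12.6 CPM with MS-275 against 1.94 and 1.31 with DMSO, 8.19-fold) and Cdkn2b (3.11-fold) rose with it. Cdk4, the kinase of the G1 phase, had 219.6 and 218 CPM with MS-275 against 543 and 508 with DMSO (2.41-fold lower). Myc had 38.1 and 36.2 CPM with MS-275 against 59.1 and 59.3 with DMSO (1.59-fold lower). Of 29 CDK inhibitors, cyclins and related genes, 9 rose (31.0%, beside 31.9% of all genes tested) and 15 fell (51.7%; median log2 fold change −0.26). Of the falls, 4 were by 2-fold or more. DNA replication genes fell in 21 of 34 cases (61.8%; median log2 fold change −0.41), none by 2-fold: the thymidine kinase gene Tk1 fell 1.76-fold, the thymidylate synthase gene Tyms 1.68-fold and the ribonucleotide reductase gene Rrm1 1.65-fold. The 5 rises in that list, Gins3 (1.32-fold) among them, numbered 0 without DMSO replicate 1, 2 without MS-275 replicate 1 or MS-275 replicate 2, and 3 without DMSO replicate 2. Mitosis genes fell in 18 of 28 cases (64.3%; median −0.32; 3 higher), with Ube2c 1.94-fold, Cdc20 1.81-fold and Cenpa 1.72-fold lower, and the kinetochore gene Spc25 1.45-fold higher.

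Genes of the p53 pathway and of apoptosis were higher for 19 of 29 tested members and lower for 7 (median log2 fold change 0.56; 1 listed gene, Pmaip1, had no counts in the 4 libraries). The death receptor genes Fas (2.03 and 3.29 CPM with MS-275 against 0.157 and 0.228 with DMSO) and Eda2r (4.95 and 4.33 CPM with MS-275 against 0.471 and 0.341 with DMSO, 11.2-fold) rose, and so did Trp53 itself, the gene of p53, with 5.55 and 3.98 CPM with MS-275 against 0.262 and 0.228 with DMSO. The 3 genes had under 6 CPM in each of the 4 day 2 libraries, and Trp53 had a mean of 7.97 CPM at day 0. Gadd45g, a growth arrest gene also induced by proneural factors, fell to 9.26 and 16.8 CPM with MS-275 against 49.8 and 46.7 with DMSO (log2 fold change −1.89). The ubiquitin ligase gene Mdm2, a p53 target that restrains p53, fell to 62.4 and 65.7 CPM with MS-275 against 80.0 and 83.8 with DMSO.

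Genes for making ribosomes had the highest share of falls among the 44 lists. Of 28 ribosome biogenesis and nucleolar genes, 27 fell (96.4%) and 1 rose, with a median log2 fold change of −0.57; 22 of the falls held under all 4 scalings. The processome gene Utp20 had 68.5 and 64.1 CPM with MS-275 against 189 and 189.8 with DMSO (2.86-fold lower), the pseudouridine synthase gene Dkc1 fell 2.43-fold and its partner Gar1 2.22-fold. Nop10, of the same complex, rose 1.14-fold, a call lost without MS-275 replicate 1 or DMSO replicate 2. Cytosolic ribosomal protein genes fell in 32 of 43 cases (74.4%) by small amounts (median −0.20), and 17 of these held under all 4 scalings: Rpl30 fell 1.59-fold, Rps25 1.43-fold and Rps23 1.38-fold, while Rplp0 rose 1.13-fold.

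Pluripotency genes, many of which retinoic acid shuts off, were mostly higher with MS-275 than with DMSO. Of 26 tested members 17 rose (65.4%), 7 fell and 2 were not called, with a median log2 fold change of 1.54; 4 listed genes were not tested and 1 passed the filter only through MS-275 libraries. Pou5f1, encoding Oct4, had 77.0 and 81.2 CPM with MS-275 against 40.0 and 38.0 with DMSO (2.03-fold, log2 fold change 1.02, SE 0.0662, edgeR adjusted p = 1.24e-09); its mean at day 0 was 1418 CPM. Nanog had 11.8 and 13.4 CPM with MS-275 against 6.39 and 6.65 with DMSO (1.93-fold), and 9.20 CPM at day 0. Among factors of the naive state, Tfcp2l1 had 20.1 and 18.3 CPM with MS-275 against 1.47 and 1.71 with DMSO (12.1-fold). Its mean at day 0 was 4.03 CPM, below both MS-275 libraries. Nr5a2 had 5.65 and 6.22 CPM with MS-275 against 0.314 and 0.114 with DMSO. It too was low at day 0, with a mean of 0.324 CPM. The chromatin gene Utf1 had 8.52 and 8.21 CPM with MS-275 against 0.419 and 0.341 with DMSO (21.6-fold), with 324 CPM at day 0. Sox2, shared with neural progenitors, fell to 78.1 and 82.7 CPM with MS-275 against 193 and 199 with DMSO (2.44-fold lower). Otx2, a factor of the primed state and the forebrain, fell to 13.5 and 21.5 CPM with MS-275 against 55.9 and 53.9 with DMSO.

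Neural progenitor genes were lower for 24 of 39 tested members (61.5%) and higher for 12 (30.8%), with a median log2 fold change of −0.57. Among called members with a mean of at least 1 CPM over both groups, transcription factor genes fell furthest. Hes5, a Notch target, had 1.29 and 0.697 CPM with MS-275 against 12.5 and 11.7 with DMSO. Sox21 had 0.644 and 0.597 CPM with MS-275 against 12.4 and 12.8 with DMSO. Neurog1 had 1.09 and 1.79 CPM with MS-275 against 17.1 and 16.8 with DMSO. The neural plate factor Sox1 had 31.8 and 32.9 CPM with MS-275 against 109 and 106 with DMSO (3.31-fold lower). Pax6 rose, with 42.3 and 45.8 CPM with MS-275 against 16.8 and 15.6 with DMSO (2.72-fold, log2 fold change 1.44, SE 0.123, edgeR adjusted p = 3.11e-08). This was the largest called rise among members with a mean of at least 1 CPM. Over all tested members the highest log2 fold change was 5.146, and 6 were called at least 2-fold higher against 15 lower. MS-275 levels lay below both DMSO libraries in the falling genes and above them in Pax6, with no overlap in these genes, as in 81.5% of all genes tested.

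The Notch pathway, which holds progenitors back from neurogenesis, fell in 17 of 25 cases (68.0%; median log2 fold change −0.62). Its ligand genes Dll1 (33.3 and 37.2 CPM with MS-275 against 113 and 104 with DMSO, 3.08-fold lower) and Dll4 (0.792 and 1.29 CPM with MS-275 against 16.1 and 9.78 with DMSO) fell, and so did the target gene Hes3 (5.99-fold). Hes7, the oscillating target of the segmentation clock, rose with 6.79 and 6.72 CPM with MS-275 against 0.157 and 0.171 with DMSO (39.7-fold). Among 34 Wnt genes 18 fell and 9 rose (median −0.20): Wnt1 fell 6.81-fold and Wnt7b 5.42-fold, while Wnt8a (11.3 and 12.8 CPM with MS-275 against 1.31 and 0.682 with DMSO) and Wnt11 (7.96-fold) rose. In the Nodal, BMP and Fgf list 15 of 37 tested genes rose and 13 fell (median 0.35). Nodal had 6.98 and 8.71 CPM with MS-275 against 40.5 and 42.0 with DMSO (5.25-fold lower). Its inhibitor Lefty1 had 11.0 and 18.8 CPM with MS-275 against 184 and 202 with DMSO; Lefty1 and Lefty2 share sequence and reads may be split between them. The Ets factor Etv4, a target of Fgf signals, rose 7.56-fold. In the Hedgehog list the target gene Gli1 (6.24-fold) rose and the co-receptor gene Boc fell (5.67-fold), with 6 rises and 7 falls of 15 tested genes (median −0.54), 2 of them tested only through MS-275 libraries.

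**Figure D4:**
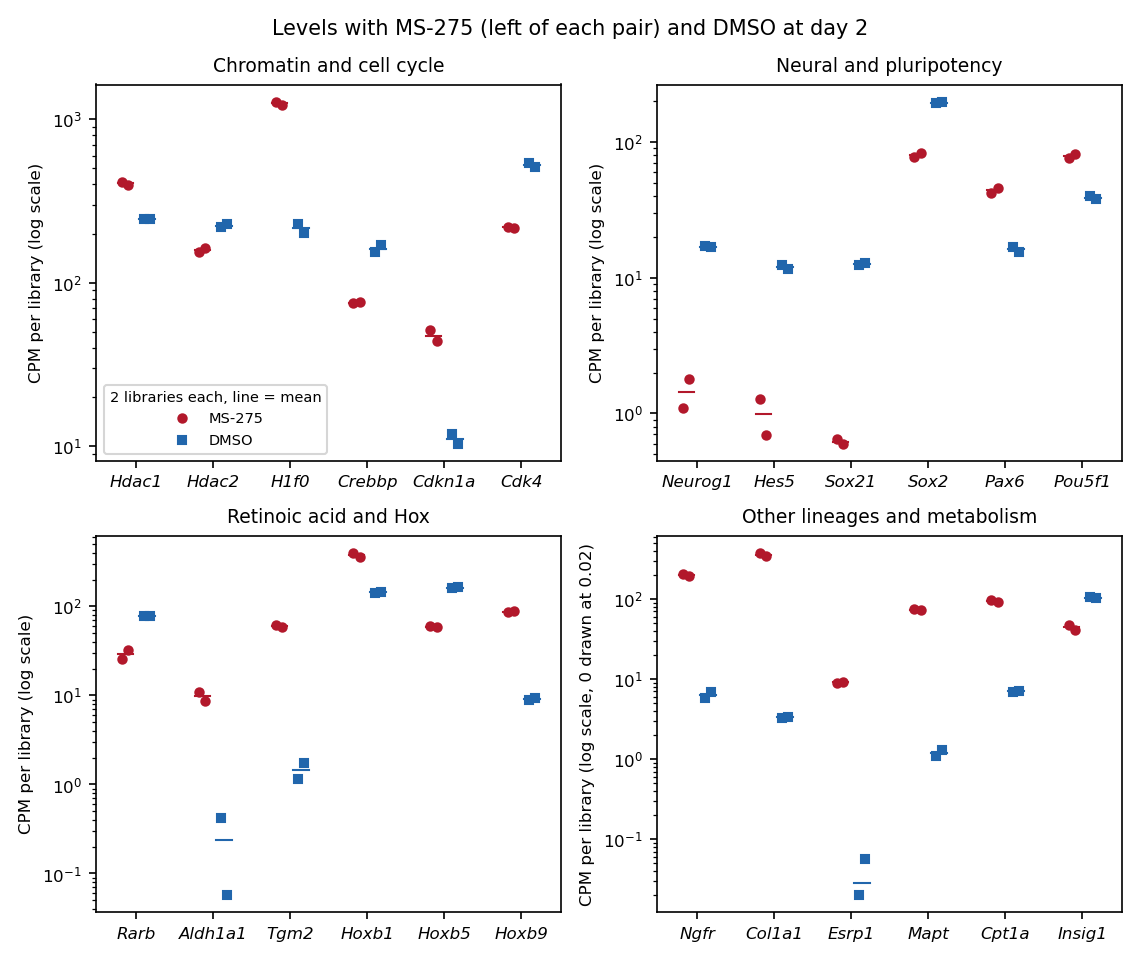
CPM of 24 genes in each MS-275 library (red circles, left of each pair) and DMSO library (blue squares), log scale, with the mean of the 2 libraries as a line; the genes are those of the text, chosen after their values were seen. The replicates lie apart mainly at low levels (Aldh1a1 and Esrp1 with DMSO, Hes5 and Neurog1 with MS-275), and the groups do not overlap for any of the 24 genes, nor for 81.5% of all genes tested.

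Retinoic acid genes did not move one way. Of 31 tested genes of its response and metabolism 15 rose (48.4%) and 12 fell (38.7%; median log2 fold change 0.09). The receptor gene Rarb, a direct target, had 25.6 and 32.5 CPM with MS-275 against 77.1 and 77.3 with DMSO (2.65-fold lower). Cyp26a1, which encodes the hydroxylase that breaks retinoic acid down, had 574 and 523 CPM with MS-275 against 547 and 575 with DMSO and was not called (log2 fold change −0.03, edgeR adjusted p = 0.761). The synthesis genes rose: Aldh1a2 had 38.6 and 41.3 CPM with MS-275 against 3.14 and 2.84 with DMSO (13.3-fold). Aldh1a3 had 3.52 and 3.48 CPM with MS-275 against 0.209 and 0.171 with DMSO (17.8-fold). Aldh1a1 had 11.0 and 8.71 CPM with MS-275 against 0.419 and 0.0569 with DMSO. Tgm2, a transglutaminase gene induced by retinoic acid in many cells, had 62.0 and 58.1 CPM with MS-275 against 1.15 and 1.76 with DMSO (41.3-fold). The early Hox gene Hoxb1 rose, with 397 and 364 CPM with MS-275 against 142 and 146 with DMSO (2.64-fold).

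Hox genes split by position in their clusters. Of the 15 paralogs 1 to 5, which are expressed towards the head, 12 fell (80.0%) and 3 rose (median log2 fold change −0.57). Hoxc5 had 20.0 and 22.9 CPM with MS-275 against 235 and 247 with DMSO (11.2-fold lower). Hoxb5 had 59.9 and 58.8 CPM with MS-275 against 159 and 165 with DMSO (2.73-fold lower); Hoxb1 and Hoxd1 (4.27-fold) were among the rises. Of the 24 paralogs 6 to 13, 7 were not tested and 14 of the 17 tested rose (82.4%; median 3.26). As 3 of the 17 passed the filter only through MS-275 libraries, the count among the others was 11 of 14. Hoxa9 had 12.1 and 10.6 CPM with MS-275 against 0.157 and 0 with DMSO (ratio 139, 95% counting interval 47.3 to 677). Hoxb13 had 11.2 and 10.1 CPM with MS-275 against 0.576 and 0.739 with DMSO (16.1-fold). Hoxd8 had 4.46 and 4.28 CPM with MS-275 against 0.314 and 0.0569 with DMSO, while Hoxb6 (67.5 and 61.9 CPM with MS-275 against 65.0 and 63.4 with DMSO), Hoxb8 (121 and 109 CPM with MS-275 against 134 and 124 with DMSO) and Hoxc6 (5.35 and 5.28 CPM with MS-275 against 5.18 and 5.63 with DMSO) were the 3 not called. Hox genes overlap antisense and neighbouring transcripts, so reads may be shared within a cluster.

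Genes of neurons and synapses rose in part. The neuron list held 40 genes, 17 of them higher and 14 lower, with a median log2 fold change of 0.09. Genes of synapses and channels were higher in 33 of 48 cases (68.8%) and lower in 6 (12.5%; median 0.72). The intermediate filament gene Prph had 54.7 and 42.1 CPM with MS-275 against 1.15 and 0.739 with DMSO (50.4-fold). The vesicular GABA transporter gene Slc32a1 had 3.57 and 2.69 CPM with MS-275 against 0.105 and 0.171 with DMSO (21.9-fold). Mapt, for tau, had 74.0 and 72.7 CPM with MS-275 against 1.099 and 1.31 with DMSO. Nhlh1, a factor of newborn neurons, fell to 0.545 and 0.249 CPM with MS-275 against 7.12 and 6.14 with DMSO. In the synapse list the vesicle fusion gene Cplx2 fell to 8.17 and 10.2 CPM with MS-275 against 84.7 and 95.1 with DMSO (9.77-fold lower), and the NMDA receptor gene Grin2b (5.60 and 4.68 CPM with MS-275 against 0.314 and 0.796 with DMSO), the potassium channel gene Kcna1 (3.42 and 3.04 CPM with MS-275 against 0.524 and 0.284 with DMSO) and the sodium channel gene Scn3a (6.16-fold) rose. Known targets of REST, a repressor of neuronal genes that recruits deacetylases, were higher for 18 of 32 members (56.2%) and lower for 6 (18.8%; median 0.72): Calb1, for calbindin, had 6.04 and 5.03 CPM with MS-275 against 0.366 and 0.284 with DMSO (16.6-fold). The calcium pump gene Atp2b2 had 20.2 and 23.6 CPM with MS-275 against 2.83 and 2.39 with DMSO (8.34-fold), whereas Trim9 (8.16-fold) and the glycine receptor gene Glra1 (3.94-fold) fell.

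Genes of other lineages rose beside the neural ones, many at low levels. Epithelial junction and keratin genes were higher for 22 of 26 tested members (84.6%) and lower for 1 (median log2 fold change 2.14; 4 listed genes were not tested). Cdh1, for E-cadherin, had 79.2 and 77.7 CPM with MS-275 against 2.88 and 4.09 with DMSO (22.6-fold). The splicing regulator gene Esrp1 had 8.96 and 9.16 CPM with MS-275 against 0 and 0.0569 with DMSO (ratio 332, 95% counting interval 59.3 to 13160). The fall was that of Lsr (−0.29 on the log2 scale), which was not called under upper quartile or library total scaling. Fibroblast and matrix genes were higher for 18 of 40 tested members and lower for 12 (median 0.30): Pdgfrb, a receptor of mesenchyme, had 36.7 and 39.2 CPM with MS-275 against 4.45 and 4.55 with DMSO (8.42-fold). The cartilage collagen gene Col2a1 had 66.7 and 71.1 CPM with MS-275 against 322 and 342 with DMSO (4.82-fold lower). Col1a1 (372 and 342 CPM with MS-275 against 3.30 and 3.35 with DMSO) gave most of the fibroblast marker sum with MS-275 but not with DMSO, and the part of other cells in it was not tested. Neural crest genes were higher for 12 of 20 members and lower for 6 (median 1.16), with Pmel, a melanosome gene, 6.59-fold higher, and the crest factors Tfap2b (14.8-fold) and Msx1 (5.45-fold) lower.

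Cardiac and muscle genes were higher for 18 of 24 tested members (75.0%) and lower for 2 (median log2 fold change 2.41); 4 listed genes were not tested and 4 of those tested passed only through MS-275 libraries. Smooth muscle myosin Myh11 had 9.86 and 9.11 CPM with MS-275 against 0.576 and 0.625 with DMSO (15.6-fold). Atrial light chain Myl4 had 4.51 and 3.73 CPM with MS-275 against 0.157 and 0.0569 with DMSO. Myh6 had 2.97 and 1.99 CPM with MS-275 against 0.0524 and 0.114 with DMSO. The factor Hand2 had 1.53 and 1.44 CPM with MS-275 against 8.27 and 10.2 with DMSO (6.16-fold lower). The muscle markers Myog and Ckm stood at 0.149 CPM or less in the 4 libraries. Germline genes were higher for 14 of 20 tested members (70.0%) and lower for 1 (median 2.06), with 12 listed genes not tested. Among the 20, 2 passed the filter only through MS-275 libraries, and 12 of the others rose (median 1.91). Stra8, a meiosis gene that retinoic acid induces in germ cells, had 39.2 and 36.1 CPM with MS-275 against 2.30 and 2.22 with DMSO (16.6-fold). Tdrd5 had 8.47 and 8.21 CPM with MS-275 against 0.471 and 0.455 with DMSO (17.8-fold). Tex19.1 had 19.6 and 14.5 CPM with MS-275 against 0.209 and 0.341 with DMSO (61.1-fold), while the germ cell markers Dazl and Mael stood at 0.105 CPM or less. The synaptonemal gene Sycp1 fell to 6.04 and 11.4 CPM with MS-275 against 21.8 and 23.4 with DMSO. Of 16 tested primitive streak and endoderm genes 9 rose and 2 fell (median 0.95), Wnt3 (2.35-fold lower) among the falls. Among these 16, 1 passed the filter only through MS-275 libraries, and 8 of the others rose. Brachyury (T) had 4.56 and 5.28 CPM with MS-275 against 0.314 and 0.284 with DMSO (16.1-fold). Eomes had 6.98 and 5.82 CPM with MS-275 against 0.890 and 0.853 with DMSO (7.29-fold). Of 16 tested blood and endothelial genes 9 rose (median 1.64), among them the globin gene Hba-a1 (4.71 and 3.93 CPM with MS-275 against 0 and 0 with DMSO, at least 52.8-fold higher) and Vwf (12.8-fold); the 1 fall, of Tek (1.19 and 1.24 CPM with MS-275 against 1.68 and 2.73 with DMSO), was not called without MS-275 replicate 1, MS-275 replicate 2 or DMSO replicate 2. In the blood and endothelial list 1 tested gene passed the filter only through MS-275 libraries, and 8 of the others rose. Of 18 genes of the earliest embryo stages 2 were tested: Arg2 rose (8.47 and 9.66 CPM with MS-275 against 0.105 and 0.228 with DMSO) and Eif1a fell (1.40-fold), while no Zscan4 gene passed the filter on low counts.

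Among metabolic genes, those of cholesterol synthesis and uptake were lower for 16 of 29 members (55.2%) and higher for 6 (20.7%; median log2 fold change −0.30). Insig1, which holds back the activation of sterol-sensing factors, had 47.2 and 41.3 CPM with MS-275 against 105 and 102 with DMSO (2.34-fold lower, log2 fold change −1.23, SE 0.0759, edgeR adjusted p = 7.03e-10), and the sterol demethylase gene Cyp51 fell 2.25-fold, while the cholesterol exporter gene Abcg1 rose (14.6 and 16.3 CPM with MS-275 against 1.73 and 1.65 with DMSO, 9.12-fold). Genes that supply or use acyl-CoA rose in 11 of 20 cases and were lower in 4 (median 0.24): the acetyl-CoA carboxylase gene Acacb had 25.1 and 22.3 CPM with MS-275 against 3.04 and 3.01 with DMSO (7.82-fold), and the enoyl-CoA hydratase gene Echs1 fell 2.17-fold. Respiratory chain genes fell in 21 of 28 cases by small amounts (75.0%; median −0.25), 12 of them under all 4 scalings: Ndufa9 fell 1.72-fold and Ndufb5 1.53-fold, and Cox5a was 1.22-fold higher. The 2 rises there numbered 1 without MS-275 replicate 1 or DMSO replicate 2.

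Glycolysis genes could not be read as a group. With all libraries 13 of 31 rose and 5 fell (median log2 fold change 0.24), but the counts were 23 and 4 without MS-275 replicate 1 and 12 and 13 without MS-275 replicate 2, where the median was −0.02. These are the genes in which the MS-275 replicates differ: Ldha, for lactate dehydrogenase, had 175 and 404 CPM with MS-275 against 307 and 305 with DMSO and was not called. Hk2, for hexokinase, had 30.7 and 122 CPM with MS-275 against 126 and 143 with DMSO, a fall that was not called without MS-275 replicate 1 or either DMSO replicate. Other members rose: Mlxipl, the glucose-sensing factor ChREBP, had 31.0 and 28.4 CPM with MS-275 against 2.15 and 1.93 with DMSO (14.5-fold), next to Txnip, which it is known to induce. Pfkp, for platelet phosphofructokinase, had 137 and 187 CPM with MS-275 against 38.5 and 49.1 with DMSO (3.71-fold).

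Stress and immune genes were mostly higher. Immediate early genes were higher for 20 of 25 tested members (80.0%) and lower for 2 (median log2 fold change 1.20): the Kruppel-like factor genes Klf2 (7.18 and 5.87 CPM with MS-275 against 0.628 and 0.910 with DMSO, 8.47-fold) and Klf4 (5.20 and 6.27 CPM with MS-275 against 0.576 and 1.31 with DMSO) led, with the nuclear receptor gene Nr4a3 (4.69-fold), and the antiproliferative gene Btg2 fell 1.58-fold. Heat shock and stress genes were higher for 16 of 28 members and lower for 6 (median 0.56), with Hspa1b (11.0 and 8.56 CPM with MS-275 against 1.62 and 0.796 with DMSO) and the metallothionein gene Mt2 (40.5 and 66.2 CPM with MS-275 against 6.75 and 6.65 with DMSO) higher and Chac1 lower (1.97-fold); Hspa1b has a near copy in Hspa1a. Interferon and RNA sensing genes were higher for 18 of 26 tested members (69.2%) and lower for 2, 1 of these under all 4 scalings (median 1.13): Usp18 had 2.58 and 2.79 CPM with MS-275 against 0 and 0.114 with DMSO (ratio 49.2, 95% counting interval 13.3 to 411). Oas1a had 1.98 and 2.24 CPM with MS-275 against 0.157 and 0 with DMSO (ratio 25.8, 95% counting interval 8.54 to 128). The double-stranded RNA receptor gene Tlr3 had 5.45 and 3.38 CPM with MS-275 against 0.471 and 0.512 with DMSO, and Mavs fell 1.46-fold. Genes of MHC class I presentation were higher for 12 of 18 members (66.7%) and lower for 3 (median 1.58): the peptide transporter gene Tap2 had 18.7 and 18.3 CPM with MS-275 against 1.099 and 0.910 with DMSO (18.3-fold). The immunoproteasome gene Psmb9 had 13.3 and 11.5 CPM with MS-275 against 0.995 and 0.682 with DMSO (14.6-fold), and the peptidase gene Erap1 fell 2.65-fold.

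Clustered protocadherin genes, which give neurons their surface identity, were lower for 20 of 29 members (69.0%) and higher for 2 (median log2 fold change −1). Pcdhb22 had 5.50 and 6.47 CPM with MS-275 against 26.1 and 28.7 with DMSO (4.57-fold lower). Pcdhb21 had 2.82 and 2.09 CPM with MS-275 against 14.6 and 13.7 with DMSO. Pcdhb19 had 3.32 and 3.53 CPM with MS-275 against 13.8 and 14.7 with DMSO (4.15-fold lower). Pcdhga1 had 2.23 and 3.98 CPM with MS-275 against 0.785 and 0.739 with DMSO. The number of rises was 1 to 3 when 1 library was left out. Members of the alpha and gamma clusters share constant exons and beta members resemble each other, so the split of reads between them is uncertain.

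The level at day 0 separated the genes that rose. It was measured in libraries outside the 2 groups compared, though these libraries were part of the same fit. Of genes with no counts at day 0, 27.6% rose with MS-275 by 2-fold or more and 11.8% fell by as much. The shares were 33.7% and 7.06% for genes under 1 CPM at day 0, 33.7% and 7.55% for 1 to 10 CPM, 8.97% and 4.94% for 10 to 100 CPM, and 2.45% and 4.35% for 100 CPM and over. Among genes that pass the filter without help from MS-275 libraries, the shares of the lowest bins were 16.4% and 14.2% (no counts) and 26.0% and 8.59% (under 1 CPM). With any 1 of the 4 day 2 libraries left out, the share higher was 17.2% to 20.1% for genes with no counts and 23% to 25.1% for genes under 1 CPM.

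The genes also had a place in the course of retinoic acid without drug from day 0 to day 4, which shares no library with the drug comparison. Of the 3384 genes at least 2-fold higher with MS-275, 1323 (39.1%) fell by 2-fold or more between day 0 and day 4 and 756 (22.3%) rose by as much. Over all genes tested 18.2% were lower and 20.7% higher. Of the 1075 genes at least 2-fold lower with MS-275, 521 (48.5%) were higher at day 4 and 117 (10.9%) lower. As shares of the other list, genes higher with MS-275 made up 41.0% of the genes that fell by day 4, and genes lower with MS-275 14.2% of those that rose by day 4. Tfcp2l1 and Clu are of the kind that fell in the course (Clu had a mean of 2.38 CPM at day 4 and 48.6 at day 0), and Igfbp5 and Sox21 of the kind that rose (Sox21 had 45.5 CPM at day 4 and 0.0525 at day 0). Hoxb9 and Ngfr were higher with MS-275 and rose in the course too, to 1317 and 66.0 CPM at day 4.

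**Figure D5:**
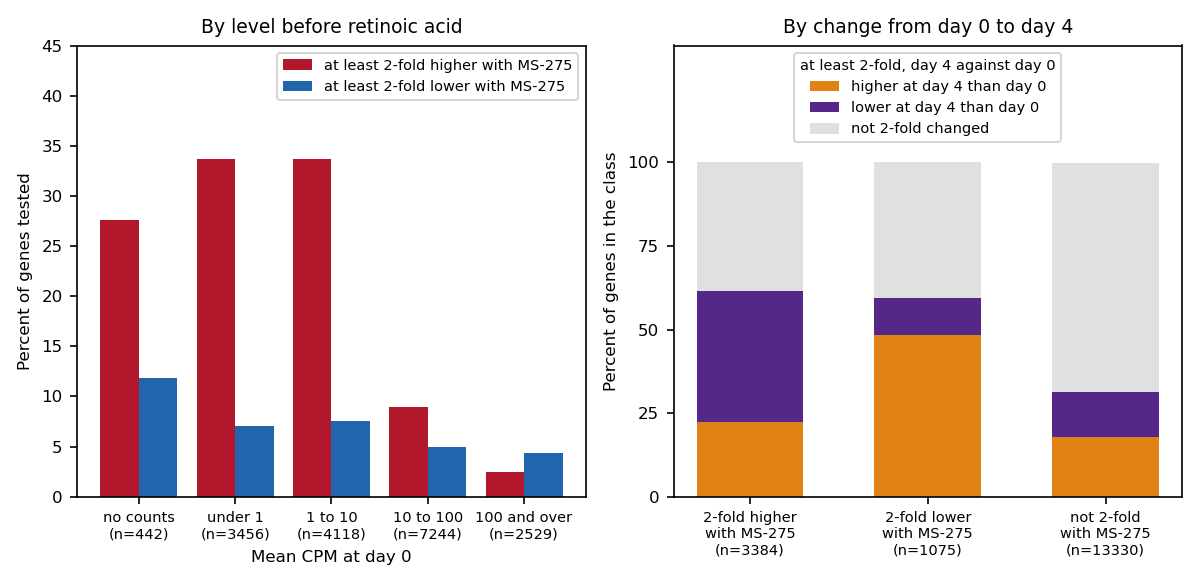
Left, percent of genes tested that were at least 2-fold higher (red) or lower (blue) with MS-275 than with DMSO, by mean CPM at day 0; right, percent of the genes of each MS-275 class that were at least 2-fold higher (orange) or lower (purple) at day 4 than at day 0. Rises fall off above 10 CPM at day 0 (8.97% and 2.45%), and 48.5% of the genes lower with MS-275 are higher at day 4.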

How the data were processed

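RNA was counted per gene by the authors as estimated counts, and the submitters' processing notes name Salmon 1.1.0; the deposited table has 55385 gene identifiers, 55144 with a symbol. Estimated counts were rounded to whole numbers. Genes passing edgeR's filterByExpr were tested with edgeR 4.0.16 (R 4.3.3), a quasi-likelihood fit of all 10 RNA libraries in 5 groups with TMM factors, and p-values were adjusted by the Benjamini-Hochberg method over 17789 genes. CPM values use the TMM library sizes. Peaks were called with MACS2 2.2.7.1 after Bowtie2 2.4.1 on GRCm38, per the submitters' processing notes; per the file headers, each deposited list gives pileup signal, fold enrichment and −log10 p and q-values, which are the authors' own. Peaks were joined to gene ends within 1 kb. RefSeq promoter windows covered under 80% of genes, so a comparison of their sequences between gene classes was not made.

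The genes named are the 10 largest rises and the 10 largest falls from at least 5 CPM with DMSO, the 10 highest MS-275 levels from under 0.5 CPM, the 5 largest gains and losses of CPM, the 3 largest changes of each of 44 gene lists with the largest the other way, and a panel of 22 genes; others were chosen after their values were seen. The rankings by fold, level or difference took only called genes whose groups did not overlap. They left out predicted and unnamed loci, mitochondrial genes and pseudogenes. The rule for lists took called members with a mean over both groups of at least 1 CPM. The comparison and the lists were chosen with earlier results of these data known. Folds that move over 1.5 times without 1 library are left out and CPM given. A ratio against 1 to 3 DMSO counts has a 95% interval, and one against 0 counts uses a floor of 3 counts over the group; both cover counting error only. Alternatives were other scalings, filters, DESeq2 1.42.0, a replicate block, and each library left out. Some genes that the rule for named genes picks are not reported here; the counts and medians include them.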

Additional observations from a re-analysis of the deposited data

How the results depend on the processing

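The number of genes called was 9715 by DESeq2 and 9890 to 11470 under the other alternatives, and the number at least 2-fold lower was 818 to 1182, all within 1.5 times of the main counts. The replicate block called 11182 genes; the deviations of same-numbered day 2 libraries correlated at 0.03, so the numbers were not treated as pairs, and the block moved no count by 1.5 times. Of the checks of single named genes 2538 kept their direction and call, 27 lost the call, 2 gained it (Hdac3 under upper quartile and total scaling) and 1 turned round (Actb, 0.105 under library totals). The median of the glycolysis list turned to −0.021 without MS-275 replicate 2 (range over left-out libraries −0.021 to 0.557). The cytoskeleton median, −0.00 in the main fit, was 0.025 under DESeq2-type factors, 0.139 under upper quartiles, 0.137 under totals, and −0.015 to 0.051 with 1 library left out. The cause was not tested in these cases.

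The share of genes at least 2-fold higher with MS-275 changed with how genes were binned. By the level at day 4 it was 61.9% for no counts, 42.2% under 1 CPM, 28.2% for 1 to 10 CPM and 7.67% for 10 to 100 CPM. For genes that pass the filter without MS-275 libraries it was 16.4% and 26.0% in the lowest bins by day 0. Leaving out 1 library gave 17.2% to 20.1% for no counts, 23% to 25.1% under 1 CPM and 31.6% to 32.2% for 1 to 10 CPM, where more genes of low counts are tested. For genes at least 2-fold higher, the share with an H3K9ac peak was 93.1% in the MS-275 list and 80.0% in the DMSO list within 5 kb, 84.2% with MS-275 at a −log10 q of at least 5, 76.2% and 63.3% by peak summits, and 70.3% to 70.9% in the DMSO list with 1 RNA library left out. For H3K18la it was 52.5% with MS-275 and 66.6% with DMSO within 5 kb, 18.4% and 43.3% at the stricter q, 32.6% and 47.7% by summits, and 33.4% with MS-275 for gene starts only. For genes at least 2-fold higher, the order of the MS-275 and DMSO lists was kept for both marks in each of these settings. By peak summits the H3K9ac order turned for lower genes (71.3% with MS-275 and 71.6% with DMSO) and for genes called under 2-fold (85.5% and 85.6%). With 2 libraries a group and 1 ChIP library per mark, the error of the peak shares is not known. The settings for gene starts, for genes passing without MS-275 libraries, and for left-out libraries in lists, bins, the course and peaks were chosen after seeing the data.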

Other observations

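Glial genes were higher with MS-275: of 20 tested astrocyte and oligodendrocyte genes 15 rose (75.0%) and 3 fell (median log2 fold change 1.39). Among these 20, 1 passed the filter only through MS-275 libraries, and 14 of the others rose. Olig1, a factor of oligodendrocyte precursors, had 5.25 and 4.58 CPM with MS-275 against 0.209 and 0.284 with DMSO (19.5-fold), and the matrix gene Bcan 40.4 and 37.9 CPM with MS-275 against 2.09 and 2.16 with DMSO (18.3-fold). The astrocyte glutamate transporter gene Slc1a2 fell to 17.3 and 18.2 CPM with MS-275 against 62.0 and 60.2 with DMSO (3.44-fold lower). The defining genes Gfap (0.792 and 1.20 CPM with MS-275 against 0.576 and 0.682 with DMSO) and Mog were low and not called. Imprinted genes were higher for 19 of 29 tested members (65.5%; median 0.56) and lower for 3, or 1 without DMSO replicate 1; none of the 3 falls held under all 4 scalings. Magel2 had 43.0 and 35.5 CPM with MS-275 against 9.95 and 8.76 with DMSO (4.19-fold), and the trophoblast factor Ascl2 1.73 and 2.84 CPM with MS-275 against 0.419 and 0.398 with DMSO (5.52-fold). H19, which shares a domain with Igf2, was not called (0.149 and 0.249 CPM with MS-275 against 0.262 and 0.512 with DMSO), while Igf2 had 143 and 142 CPM with MS-275 against 61.8 and 66.8 with DMSO (2.22-fold).

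Polycomb and DNA methylation genes were lower for 14 of 27 members and higher for 9 (median log2 fold change −0.21). The de novo methyltransferase gene Dnmt3b had 197 and 201 CPM with MS-275 against 54.5 and 52.5 with DMSO (3.71-fold) and its cofactor Dnmt3l 3.12 and 2.69 CPM with MS-275 against 0.105 and 0.114 with DMSO (25.2-fold), both genes of the early embryo, while the maintenance gene Dnmt1 was not called (475 and 478 CPM with MS-275 against 469.5 and 472 with DMSO). The Polycomb genes Bmi1 (2.52-fold) and Pcgf2 (2.27-fold) fell. Lysosome and autophagy genes were higher for 17 of 30 members and lower for 8 (median 0.27): the regulator gene Tfeb had 6.04 and 3.78 CPM with MS-275 against 1.31 and 1.14 with DMSO (3.99-fold), Wipi1 rose 2.50-fold, and the protease genes Ctsa (2.54-fold) and Tpp1 (1.91-fold) fell. In the cytoskeleton list 18 of 38 rose and 14 fell. The actin-severing gene Gsn had 47.1 and 44.6 CPM with MS-275 against 3.30 and 3.92 with DMSO (12.7-fold), the microvillus gene Vil1 4.75 and 4.13 CPM with MS-275 against 0.157 and 0.171 with DMSO (26.1-fold) and Lmna, for lamin A, 39.3 and 36.1 CPM with MS-275 against 5.65 and 6.94 with DMSO (log2 fold change 2.58), whereas Tpm4 fell 2.99-fold.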
